A study of Mus musculus with 6 samples.

Results

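The interleukin 1 and interleukin 36 genes described here are 10 genes picked by symbol from the 19309 genes of a mouse skin RNA sequencing table. They are the ligands Il1a, Il1b, Il1f6, Il1f9, Il18 and Il33, the receptor antagonist Il1rn, and the receptors Il1r1, Il1r2 and Il1rl2. The table writes interleukin 36 alpha as Il1f6 (gene 54448) and interleukin 36 gamma as Il1f9 (gene 215257). All 10 members were found and all 10 passed the low-count filter, which left 15109 genes for testing. The libraries came from cheek skin of 3 healthy C57BL/6 mice aged 6 to 8 weeks, with no allele or transgene named in the labels. The right cheek of each mouse was wiped each morning and evening with an equal mixture of acetone and ether for 30 s and then with distilled water for 30 s (AEW, a dry skin model), and the left cheek with distilled water for 60 s (vehicle). Tissue was taken on day 12. Each group holds 3 libraries and each mouse gives 1 library to each group, so that treatment and side of the face cannot be told apart. The vehicle cheek is wiped skin of a treated animal, not untouched skin.

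These cytokines act at the skin surface as early alarm signals. Interleukin 1 alpha is kept ready in keratinocytes, and interleukin 1 beta is made mainly by myeloid cells and is cut by caspase 1. Both bind the receptor encoded by Il1r1. Il1rn blocks that receptor, and Il1r2 encodes a decoy that binds the cytokine without signalling. The interleukin 36 cytokines come largely from keratinocytes and bind the receptor encoded by Il1rl2, which signals through MyD88 and NF-kB and is known from pustular psoriasis. Interleukins 18 and 33 are relatives, the first cut by caspase 1 and the second held in the nucleus of barrier cells.

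Library totals ran from 18449207 to 19506491 estimated counts, and single members had between 22 and 2853 counts in a library, so sampling noise was largest for Il1b. Levels are given as CPM, counts scaled to a common library size with TMM factors, and are compared between genes only as TPM, which also divides by gene length. Summed markers of several cell types differed between the groups. The summed TPM of 7 basal keratinocyte markers was 5952 to 9714 in vehicle and 11138 to 11535 in AEW libraries, with 1 of 7 markers called higher, and that of 7 skeletal muscle markers was 27264 to 38181 in vehicle and 11263 to 15511 in AEW libraries, with 6 of 7 called lower. Sums of the suprabasal keratinocyte markers overlapped, at 16252 to 20713 and 18558 to 28845 TPM. Adipocyte sums were 638 to 1072 in vehicle and 490.4 to 611 in AEW skin, and endothelial sums 161 to 221 and 136 to 148 TPM, each without overlap and with 1 of 6 markers called lower. The 9 neutrophil markers summed to 9.57 to 20.4 TPM in vehicle and 32.2 to 189.9 TPM in AEW skin, with 3 of the 4 tested called higher. Summed hair follicle markers were 254 to 263 TPM in vehicle skin and 1719, 15.9 and 484 TPM in AEW replicates 1, 2 and 3, with 0 of 8 called in the edgeR test. In such bulk tissue, more cells of a type and more RNA per cell cannot be told apart, and the part of these shifts in the changes below was not tested. Ratios to the summed basal keratinocyte markers, given below for some members, were chosen after the values were seen and are a description with no test.

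In AEW skin Il1f6 and the interleukin 36 receptor gene Il1rl2 rose and the decoy receptor gene Il1r2 fell, while the other 7 members did not pass the test. Of the 10 members 2 were higher and 1 was lower by the quasi-likelihood test of edgeR (threshold of 0.05 on p adjusted over all tested genes), against 4.85% of all tested genes higher and 6.8% lower. In the fit that takes each mouse as a block, called the blocked fit below, 2 of 10 were higher against 1.99% of all genes, and these were Il1f6 and Il1f9. In the blocked fit 0 of 10 were lower, against 3.89% of all genes, although Il1r2 had an unadjusted p of 0.0106 there, and DESeq2 without the block called 3 higher and 1 lower, against 8.85% and 9.77% of the genes to which it gave an adjusted p. The median log2 change was 0.60 over the members and 0.01 over all tested genes. Taken within mice 1, 2 and 3, the members' medians were 0.14, 0.60 and 0.66. By point value, the AEW cheek was the higher in all 3 mice for 8 members and the lower in all 3 for Il1r2. Some of these steps lay within counting error. The AEW to vehicle ratio was 1.003 for Il33 in mouse 1, and 1.016 and 1.091 for Il1r1 in mice 1 and 2. The 95% exact intervals of these ratios included 1. The members' counts have no count over all tested genes to set beside them, so how unusual they are was not tested. The plot of levels by library shows these values.

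**Figure D1:**
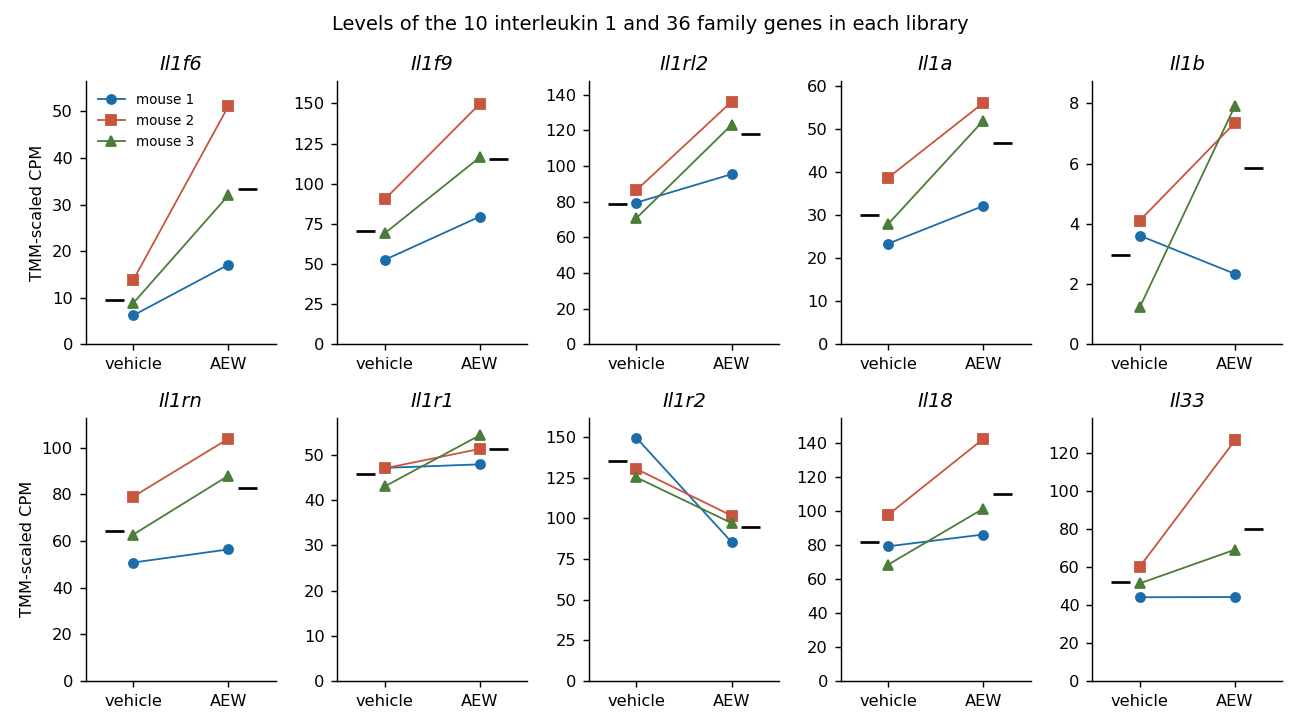
Each panel plots 1 gene, with TMM-scaled CPM on a vertical axis from 0 and the vehicle and AEW cheek of each mouse joined by a line; black dashes mark group means. AEW levels of Il1f6, Il1rl2 and Il1r1 sit above all vehicle levels, those of Il1r2 sit below, and Il1b is lower on the AEW cheek in mouse 1 but higher in mice 2 and 3.

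The ligand Il1f6 had 6.17, 13.7 and 8.78 CPM in the vehicle cheeks of mice 1, 2 and 3, and 17.1, 51.1 and 31.9 CPM in their AEW cheeks. Every AEW library was above every vehicle library, and mouse 2 was highest on both cheeks. The means were 9.56 ± 3.83 and 33.4 ± 17.1 CPM (SD, n = 3 each), a log2 change of 1.80 ± 0.44 (SE) with a 95% interval from 0.77 to 2.84 (edgeR adjusted p = 0.0442, and 0.0148 in the blocked fit). Within mice the level in AEW skin was 2.76, 3.72 and 3.64 times that in vehicle skin. Without vehicle replicate 1, 2 or 3 or AEW replicate 2 or 3 the call was lost, with adjusted p from 0.0542 to 0.17 and log2 changes from 1.35 to 2.16, whereas without AEW replicate 1 the adjusted p was 0.0127. Per 1000 TPM of the summed basal keratinocyte markers, a ratio chosen after the values were seen, Il1f6 stood at 1.97, 2.77 and 2.16 in vehicle and 3.17, 8.41 and 5.82 in AEW skin, again without overlap.

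Il1f9, the ligand with the highest TPM of the interleukin 36 genes listed as members, had 52.5, 90.3 and 69.1 CPM in vehicle skin and 79.5, 149.8 and 116 CPM in AEW skin of mice 1, 2 and 3. Mouse 2 was again highest and mouse 1 lowest on both cheeks, so the groups overlapped although the AEW cheek was the higher in each mouse. Its log2 change was 0.71 ± 0.27 (SE), which passed the blocked fit (adjusted p = 0.024) and not the fit without it (edgeR adjusted p = 0.13). The within-mouse ratios of 1.51, 1.66 and 1.69 were closer together than the levels. Without AEW replicate 1 and without the block the adjusted p was 0.0425. Per 1000 TPM of basal keratinocyte markers, Il1f9 was 8.74, 9.51 and 8.86 in vehicle and 7.73, 12.9 and 11.1 in AEW skin, which overlap.

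Il1rl2 (gene 107527), which encodes the binding chain of the interleukin 36 receptor, had 79.4, 86.4 and 70.7 CPM in vehicle skin and 95.4, 136 and 123 CPM in AEW skin of mice 1, 2 and 3. The groups did not overlap, and the smallest step was in mouse 1, where the AEW level was 1.20 times the vehicle level, against 1.57 and 1.74 times in mice 2 and 3. The log2 change was 0.58 ± 0.15 (SE) with a 95% interval from 0.23 to 0.93, just inside the threshold (edgeR adjusted p = 0.049, and 0.0759 in the blocked fit). It was also lost without vehicle replicate 1, 2 or 3 or AEW replicate 2 or 3 (adjusted p from 0.0752 to 0.187), and was 0.0132 without AEW replicate 1. Against the summed basal keratinocyte markers, Il1rl2 was 5.22, 3.59 and 3.58 per 1000 TPM in vehicle and 3.68, 4.62 and 4.60 in AEW skin, which overlap.

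Il1r2 (gene 16178) encodes the decoy receptor, and it had the highest mean TPM of the 10 members in vehicle skin. It stood at 149.6, 130.4 and 125 CPM in vehicle cheeks and at 85.5, 102 and 97.1 CPM in AEW cheeks of mice 1, 2 and 3. All AEW libraries lay below all vehicle libraries, and mouse 1 had both the highest vehicle and the lowest AEW value. The means were 135 ± 12.8 and 94.8 ± 8.38 CPM (SD, n = 3 each), a log2 change of -0.51 ± 0.11 (SE) with a 95% interval from -0.77 to -0.25 (edgeR adjusted p = 0.0328, and 0.0854 in the blocked fit). The adjusted p was 0.0632 to 0.106 without vehicle replicate 1, 2 or 3 or AEW replicate 2 or 3, and 0.0421 without AEW replicate 1. Per 1000 TPM of basal keratinocyte markers Il1r2 was 32.1, 17.8 and 20.7 in vehicle and 10.9, 11.1 and 11.8 in AEW skin, without overlap. This ratio too was chosen after the values were seen. Il1r2 TPM fell and the marker sum rose, each without overlap, so the ratio had to fall and does not test the markers' part.

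Il1r1 (gene 16177), the signalling receptor for both interleukin 1 forms, had 47.2, 47.1 and 43.1 CPM in vehicle and 48.0, 51.4 and 54.4 CPM in AEW skin of mice 1, 2 and 3. The groups did not overlap, but the log2 change of 0.16 ± 0.09 (SE) did not pass the edgeR test (adjusted p = 0.251), and its 95% interval ran from -0.04 to 0.37. Groups that do not overlap were common in this table: AEW was wholly above vehicle for 17.4% of tested genes and wholly below for 19.5%, against 3 and 1 of the 10 members.

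Among the interleukin 1 ligands, Il1a (gene 16175) had 23.3, 38.6 and 27.9 CPM in vehicle and 32.1, 56.0 and 51.8 CPM in AEW skin of mice 1, 2 and 3. The AEW cheek was the higher in each mouse, but the AEW value of mouse 1 lay below the vehicle value of mouse 2. Its log2 change was 0.64 ± 0.25 (SE; edgeR adjusted p = 0.143, and 0.0534 in the blocked fit), and without AEW replicate 1 it was 0.84 (adjusted p = 0.0355).

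Il1b (gene 16176) was the scarcest member, with 3.61, 4.11 and 1.22 CPM in vehicle and 2.34, 7.35 and 7.91 CPM in AEW skin, from 66, 76 and 22 counts and 47, 140 and 153 counts. The mice moved in different directions. The AEW to vehicle ratio was 0.648 in mouse 1 with a 95% exact interval from 0.436 to 0.956, 1.79 in mouse 2 with one from 1.34 to 2.40, and 6.47 in mouse 3 with one from 4.12 to 10.6. These intervals cover counting error only. Over the groups the log2 change was 0.97 ± 0.57 (SE) with an interval from -0.36 to 2.31 (edgeR adjusted p = 0.288). The summed TPM of 7 macrophage markers moved the same way in each mouse, from 937 to 497 in mouse 1, from 483 to 1138 in mouse 2 and from 401 to 925 in mouse 3, and their part in the Il1b values was not tested.

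The antagonist Il1rn (gene 16181) had 50.7, 79.0 and 62.7 CPM in vehicle and 56.4, 104 and 87.9 CPM in AEW skin of mice 1, 2 and 3. It was higher on the AEW cheek of each mouse by 1.11, 1.31 and 1.40 times, and the groups overlapped (log2 change 0.37 ± 0.25, SE, edgeR adjusted p = 0.36). Il18 (gene 16173) had 79.3, 97.8 and 68.4 CPM in vehicle and 86.2, 142 and 101 CPM in AEW skin, with a log2 change of 0.43 ± 0.21 (SE, adjusted p = 0.219). Il33 (gene 77125) had 44.0, 60.0 and 51.3 CPM in vehicle and 44.1, 126 and 69.0 CPM in AEW skin, so the AEW value of mouse 2 stood far above the other libraries (log2 change 0.62 ± 0.35, SE, adjusted p = 0.277). Without AEW replicate 2 the log2 change of Il33 was 0.13.

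Dropping mouse 1 and keeping the other mice as blocks, 8 of the 10 members were called higher, all but Il1r1 and Il1r2, and 1 lower, against 12.7% and 10.5% of all tested genes. With mouse 2 left out 1 was higher and 0 lower, against 0.738% and 1.84% of all genes. There 1 member was lower at an unadjusted p under 0.05, against 1592 of all 15181 tested genes. With mouse 3 left out the blocked edgeR fit called 0 of all 15164 tested genes in either direction. There 3 of the 10 members were higher and 1 lower at an unadjusted p under 0.05, against 790 and 1099 of the 15164 genes. These fits rest on 2 mice each.

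Levels were ordered by mean TPM, which can be compared between genes. In vehicle skin Il1r2 was highest at 176 ± 14.3 TPM (SD, n = 3), followed by Il18 at 146 ± 28.7, Il1f9 at 71.4 ± 20.2 and Il1rn at 42.9 ± 10.2 TPM. Il33, Il1rl2, Il1a, Il1f6 and Il1r1 followed at 33.3, 31.4, 25.1, 18.5 and 15.8 TPM, and Il1b was last at 3.61 ± 1.90 TPM. Each gene's range overlapped that of the next in this order, except between Il18 and Il1f9 and between Il1r1 and Il1b. In AEW skin Il18 was highest at 201 ± 42.6 TPM, ahead of Il1r2 at 128 ± 5.83 and Il1f9 at 119.9 ± 31.5 TPM. Il1f6 came next at 66.0 ± 30.8 TPM, up from rank 8 to rank 4 of the 10, followed by Il1rn, Il33, Il1rl2 and Il1a at 57.0, 52.5, 48.8 and 40.3 TPM. There the ranges of neighbours overlapped except between Il18 and Il1r2, between Il1a and Il1r1, and between Il1r1 and Il1b.

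A ratio of TPM between members within a library does not depend on scaling between libraries. The antagonist to ligand ratio Il1rn to Il1a was 1.73, 1.63 and 1.80 in vehicle skin and 1.40, 1.48 and 1.35 in AEW skin of mice 1, 2 and 3. The decoy to signalling receptor ratio Il1r2 to Il1r1 was 11.9, 10.5 and 10.9 in vehicle and 6.84, 7.45 and 6.67 in AEW skin. The ratio Il1f9 to Il1f6 was 4.44, 3.43 and 4.11 in vehicle and 2.43, 1.53 and 1.90 in AEW skin. In all 3 ratios the AEW libraries lay below the vehicle libraries, with mean within-mouse log2 changes of -0.28 ± 0.13, -0.67 ± 0.16 and -1.05 ± 0.16 (SD, n = 3), given as a description with no test. Il1r2 TPM fell and Il1r1 TPM rose, each without overlap, so the Il1r2 to Il1r1 ratio had to fall and adds nothing to those changes. Ratios of other gene pairs were not counted for comparison.

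**Figure D2:**
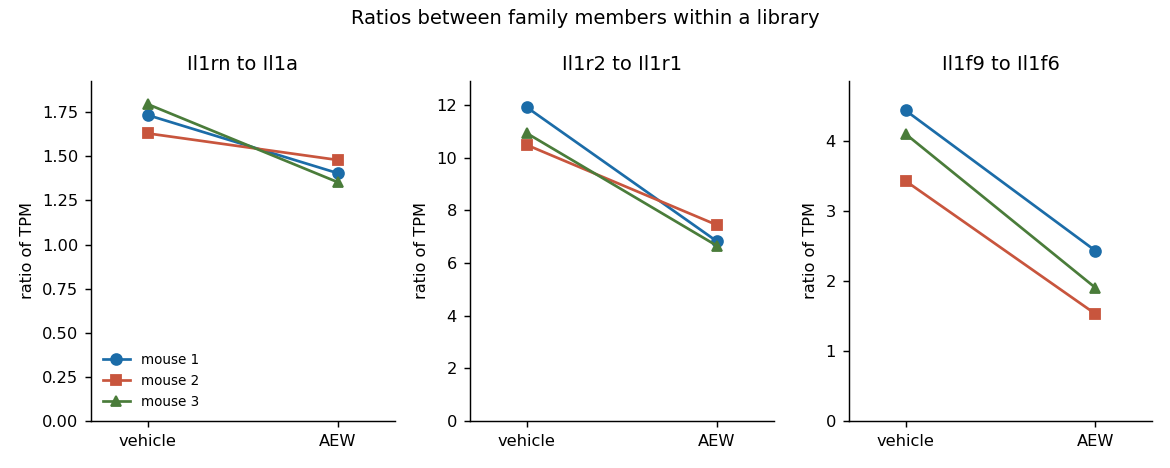
Each panel plots 1 ratio of TPM values within a library on a vertical axis from 0, with the vehicle and AEW cheek of each mouse joined by a line. All 3 ratios are lower in the AEW cheek of every mouse, from 1.72 to 1.41, from 11.1 to 6.99 and from 3.99 to 1.96 on average.

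Other genes of the family were taken from a list of 11 relatives, of which 9 passed the low-count filter. Of these, 1 was higher and 1 lower in the edgeR test, and 0 were higher and 1 lower in the blocked fit, where 2 had an unadjusted p under 0.05 upward. Over all 15109 tested genes 4.85% were higher and 6.8% lower in edgeR. In the blocked fit 1.99% were higher and 3.89% lower, and 1953 genes had an unadjusted p under 0.05 upward. The median log2 change of the relatives was 0.07. Il1f8 (gene 69677), which encodes interleukin 36 beta, had 24.0, 26.6 and 19.8 CPM in vehicle and 32.8, 92.5 and 58.8 CPM in AEW skin of mice 1, 2 and 3, without overlap (log2 change 1.38 ± 0.35, SE, edgeR adjusted p = 0.0473, and 0.0747 in the blocked fit). Without vehicle replicate 1, 2 or 3 or AEW replicate 2 or 3 its adjusted p was 0.0869 to 0.178.

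Il1f10 (gene 215274), the gene of interleukin 38, fell in both fits. It had 8.69, 12.3 and 9.95 CPM in vehicle and 3.33, 3.15 and 3.52 CPM in AEW skin of mice 1, 2 and 3. The AEW values were close together and all below the vehicle values, with a log2 change of -1.63 ± 0.18 (SE) and a 95% interval from -2.06 to -1.19 (edgeR adjusted p = 0.00817, and 0.0255 in the blocked fit). The call held without any 1 of the 6 libraries, and was lost in the blocked fit without mouse 2 or mouse 3.

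Il1f5 (gene 54450), the interleukin 36 receptor antagonist, had 83.5, 117 and 81.5 CPM in vehicle and 98.5, 249 and 199.8 CPM in AEW skin. The AEW value of mouse 1 was below the vehicle value of mouse 2, and the log2 change of 0.96 ± 0.33 (SE) did not pass the edgeR test (adjusted p = 0.101), though DESeq2 gave 0.013. Without AEW replicate 1 it passed in edgeR (adjusted p = 0.0105). The ratio of Il1f5 to the sum of Il1f6, Il1f8 and Il1f9, chosen after the values were seen, was 0.670, 0.625 and 0.591 in vehicle and 0.504, 0.517 and 0.610 in AEW skin, which overlap. The interleukin 18 receptor chain Il18r1 and the inhibitory receptor Sigirr had log2 changes of -0.39 and -0.21 (adjusted p = 0.368 and 0.459), and the shared accessory chain Il1rap had 0.07.

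Genes of the family on chromosomes 2 and 1, which do not include Il18 and Il33, lie in clusters. Neighbours within the clusters differed in direction. On chromosome 2 the family genes begin in the order Il1f8, Il1f9, Il1f6, Il1f5, Il1f10 and Il1rn in the RefSeq annotation of GRCm38.p6. On chromosome 1 their order is Il1r2, Il1r1, Il1rl2, Il1rl1, Il18r1 and Il18rap. Genes outside the family that may lie between them were not looked for. Il1f10, called lower, thus sits among ligand and antagonist genes whose fitted changes were all above 0, and Il1r2, called lower, sits beside Il1r1 and Il1rl2. Il1a and Il1b come after Il1rn in the order of chromosome 2.

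**Figure D3:**
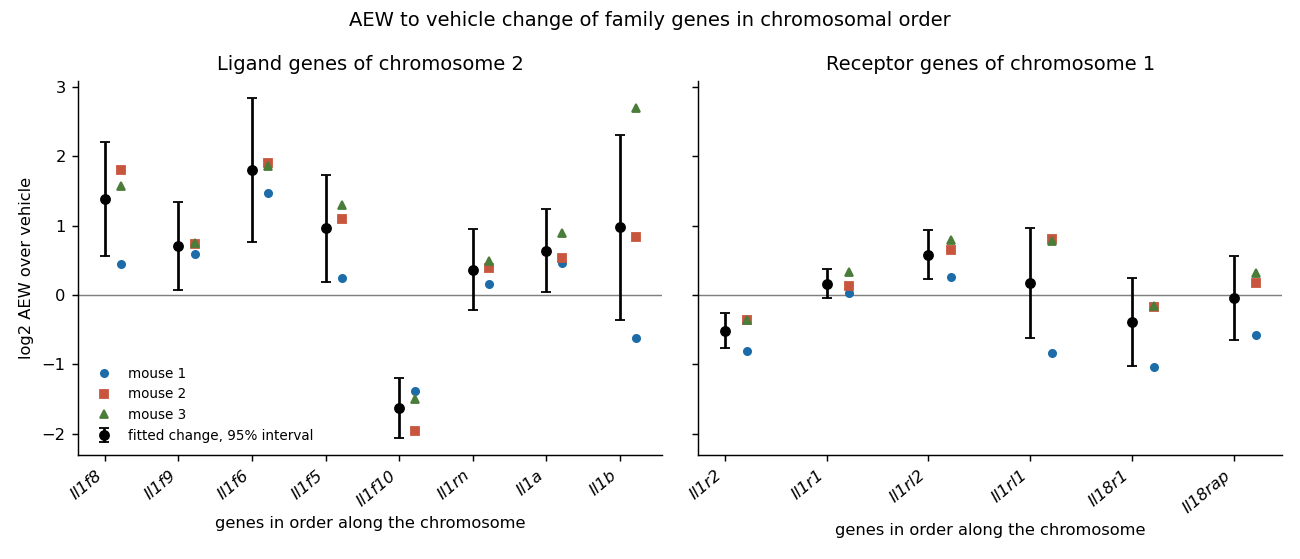
Black points and bars are fitted log2 AEW over vehicle changes with 95% intervals on the vertical axis, coloured marks are the 3 mice, and genes stand in their order along chromosomes 2 and 1 (distances not to scale). Il1f10 (-1.63) lies below 0 between Il1f5 (0.96) and Il1rn (0.37), and Il1r2 (-0.51) lies below 0 beside Il1r1 (0.16) and Il1rl2 (0.58).

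Promoters are shown for the called receptor genes, which moved in opposite directions, and for the neighbouring ligand genes Il1f9 and Il1f8. The RefSeq promoter table of GRCm38.p6 holds 9 of the 10 members, matched by gene number, and lacks Il1f6. Each sequence is the 250 bases before the annotated start, all on the plus strand, at chr1:40085843-40086092 for Il1r2, chr1:40324339-40324588 for Il1rl2, chr2:24186226-24186475 for Il1f9 and chr2:24152922-24153171 for Il1f8. Capitals mark matches on either strand to any of 4 short motifs: GGGNNNTTC (most of an NF-kB site), TGANTCA (AP-1), TTCNNNGAA (STAT) and TTGCNNAA (C/EBP).
Il1r2: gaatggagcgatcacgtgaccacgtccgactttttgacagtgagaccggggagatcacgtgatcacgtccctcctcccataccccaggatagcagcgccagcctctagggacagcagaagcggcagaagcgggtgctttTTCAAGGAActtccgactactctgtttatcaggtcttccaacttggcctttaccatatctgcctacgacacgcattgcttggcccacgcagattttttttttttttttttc
Il1rl2: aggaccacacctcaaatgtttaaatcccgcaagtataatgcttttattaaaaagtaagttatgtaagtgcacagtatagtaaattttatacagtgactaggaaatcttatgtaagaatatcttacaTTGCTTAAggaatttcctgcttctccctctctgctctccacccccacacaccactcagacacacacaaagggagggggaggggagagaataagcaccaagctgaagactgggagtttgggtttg
Il1f9: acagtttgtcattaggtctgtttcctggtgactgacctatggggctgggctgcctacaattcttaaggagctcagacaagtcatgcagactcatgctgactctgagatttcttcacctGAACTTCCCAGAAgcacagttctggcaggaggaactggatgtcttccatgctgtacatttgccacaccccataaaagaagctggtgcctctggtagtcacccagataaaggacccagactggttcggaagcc
Il1f8: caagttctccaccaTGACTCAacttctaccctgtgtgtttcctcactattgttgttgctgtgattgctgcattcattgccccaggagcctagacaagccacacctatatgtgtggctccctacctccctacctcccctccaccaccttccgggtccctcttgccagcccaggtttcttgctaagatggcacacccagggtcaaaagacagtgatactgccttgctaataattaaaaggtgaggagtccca
The STAT letters begin 111 bases before the start of Il1r2 and 128 before that of Il1f9, where they overlap the NF-kB letters that begin at 132 on the other strand. The C/EBP letters begin 124 bases before the start of Il1rl2, and the AP-1 letters 236 before that of Il1f8. Of all 32851 promoter windows in the table, 7.02% hold the STAT, 9.56% the C/EBP, 6.75% the AP-1 and 11.8% the NF-kB letters. Among the members the NF-kB letters also occur in 1 of 3 windows of Il1rn and 1 of 2 windows of Il1r1. A match of letters is not a binding site, and binding was not measured.

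Downstream genes known to be induced by interleukin 1 or 36 in skin were read from a list of 23, of which 15 passed the filter. Of these 5 were higher and 0 lower (edgeR; 0 lower at an unadjusted p under 0.05 and in DESeq2, which called 6 higher), with a median log2 change of 0.95, and in the blocked fit 2 were higher, Cxcl1 and Ccl20. Over all tested genes 4.85% were higher and 6.8% lower in edgeR, 1.99% were higher in the blocked fit, and 8.85% were higher in DESeq2. Cxcl1, a neutrophil attractant, had 0.437, 0.648 and 0.723 CPM in vehicle and 2.29, 3.99 and 3.46 CPM in AEW skin of mice 1, 2 and 3, so the rise was of like size in each mouse (5.23, 6.16 and 4.79 times). Ccl20, which attracts cells bearing CCR6, had 0.819, 1.51 and 1.39 CPM in vehicle and 3.13, 9.29 and 14.9 CPM in AEW skin. Neither group pair overlapped.

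The alarmin chains S100a8 and S100a9 rose by log2 changes of 2.73 ± 0.66 and 3.59 ± 0.80 (SE; edgeR adjusted p = 0.0434 and 0.0352, and 0.0826 and 0.0709 in the blocked fit). S100a9 had 1.42, 1.84 and 0.723 CPM in vehicle and 3.28, 30.0 and 14.8 CPM in AEW skin, with mouse 1 far below the others after treatment. Both genes are also on the neutrophil marker list, where the chemokine receptor gene Cxcr2 was called higher too, with 1.78, 2.83 and 1.80 TPM in vehicle and 3.76, 10.4 and 8.99 TPM in AEW skin (log2 change 1.81 ± 0.41, SE; edgeR adjusted p = 0.0377, and 0.0483 in the blocked fit). Csf3r, the other tested marker, was not called (edgeR adjusted p = 0.141, and 0.313 in the blocked fit). It had 3.21, 2.59 and 1.58 TPM in vehicle and 2.01, 7.05 and 7.73 TPM in AEW skin, so it fell in mouse 1. Without S100a8 and S100a9 the other 7 neutrophil markers summed to 6.56, 6.89 and 3.71 TPM in vehicle and 7.41, 20.1 and 19.8 TPM in AEW skin. The granule and surface markers Ly6g, Mpo, Ngp and Camp were under 1 TPM in every library and were not tested. The part of neutrophils in the S100a8 and S100a9 values was not tested. The beta defensin gene Defb14 had a log2 change of 0.95 (adjusted p = 0.0442, and 0.0828 in the blocked fit). Of the list, 0 genes were called when vehicle replicate 1 or vehicle replicate 3 was left out (11 and 8 at an unadjusted p under 0.05), 2 when vehicle replicate 2 was (Cxcl1 and Defb4), and Cxcl1 alone when AEW replicate 2 or 3 was. The other 8 listed genes, Cxcl3, Cxcl5, Csf2, Csf3, Il6, Il17c, Il23a and Defb4, had at most 18 counts in any library and did not pass the low-count filter over all 6 libraries. Among them Defb4, a beta defensin gene with 2 counts over the vehicle and 42 over the AEW libraries, was called higher in edgeR with no filter, in both limma fits, and without vehicle replicate 2, AEW replicate 1 or mouse 1.

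**Figure D4:**
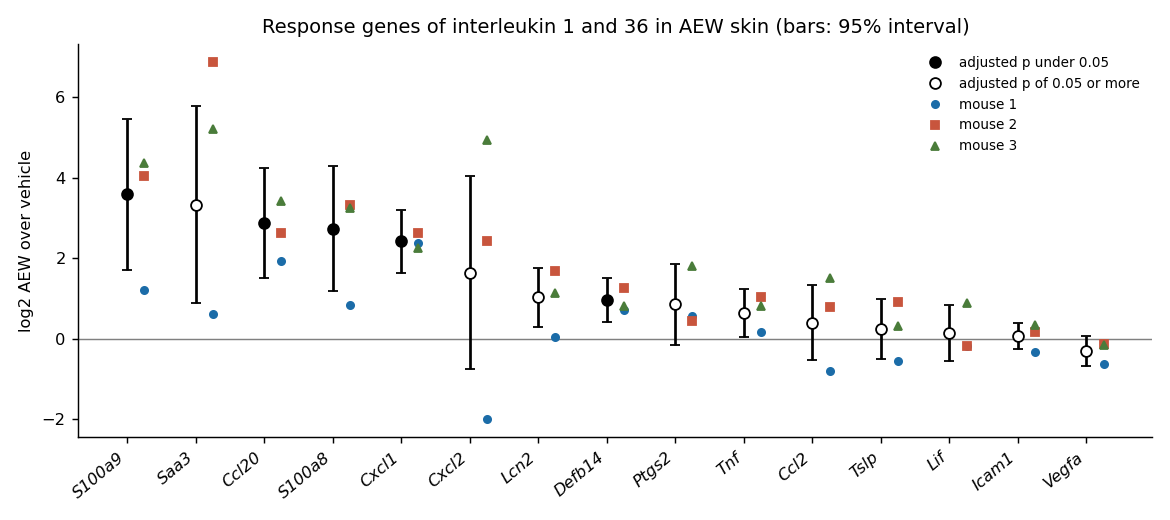
Points are fitted log2 AEW over vehicle changes of the 15 tested downstream genes with 95% intervals on the vertical axis, filled where the edgeR adjusted p is under 0.05, and coloured marks are the 3 mice. Cxcl1 lies at a like height in all mice, whereas S100a9, Saa3 and Cxcl2 are lowest in mouse 1.

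Of 24 tested signalling genes below these receptors, 1 was higher in edgeR, Traf6, a share near the 4.85% of all tested genes. In edgeR 0 were lower (0 at an unadjusted p under 0.05 and in DESeq2). DESeq2 called 3 higher, Traf6, Myd88 and Peli1, against 8.85% of the genes to which it gave an adjusted p. The list had a median log2 change of 0.12. In the blocked fit 0 of the 24 were called, against 1.99% of all tested genes higher and 3.89% lower. There 3 of the 24 were higher at an unadjusted p under 0.05, a share near that of all tested genes (1953 of 15109). Traf6, the ubiquitin ligase that links the receptor complex to NF-kB, had 36.7, 42.3 and 39.1 CPM in vehicle and 46.8, 55.7 and 53.0 CPM in AEW skin of mice 1, 2 and 3 (log2 change 0.40 ± 0.10, SE, edgeR adjusted p = 0.0482, and 0.0571 in the blocked fit). Without vehicle replicate 1, 2 or 3 or AEW replicate 2 or 3 its adjusted p was 0.0664 to 0.175. Myd88, the adaptor of the receptors, was close behind with 41.6, 41.5 and 37.5 against 46.1, 61.4 and 58.6 CPM (log2 change 0.46 ± 0.12, SE, edgeR adjusted p = 0.0555), and it passed in DESeq2 (adjusted p = 0.0162), without TMM factors (0.0402) and in limma on log2(TPM + 1) (0.042). Peli1, Irak3 and Zc3h12a stood at log2 changes of 0.34, 0.26 and 0.60 (adjusted p = 0.0757, 0.171 and 0.219).

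Of 17 tested genes that cut or release these cytokines, 0 were called in edgeR, with or without the block, or in DESeq2. Over all tested genes edgeR called 4.85% higher and 6.8% lower, and the blocked fit 1.99% and 3.89%. DESeq2 called 8.85% and 9.77% of the genes to which it gave an adjusted p. At an unadjusted p under 0.05 in edgeR without the block, 5 of the 17 were higher and 0 lower. Over all 15109 tested genes 2232 were higher and 2422 lower at that threshold. The median log2 change of the 17 genes was 0.06. The inflammasome sensor Nlrp3 had 1.09, 0.486 and 0.389 CPM in vehicle and 1.29, 1.73 and 1.91 CPM in AEW skin of mice 1, 2 and 3 (log2 change 1.32 ± 0.42, SE, adjusted p = 0.0873). The adaptor Pycard, Casp8, Nlrp1a and Aim2 had log2 changes of 0.36, 0.40, 0.73 and 0.48 with adjusted p from 0.0949 to 0.14, while Casp1, which cuts interleukins 1 beta and 18, had -0.11 (adjusted p = 0.682). In the blocked fit of mice 2 and 3 alone, Casp8, Ctss, Nlrp3 and Pycard were called higher, against 12.7% of all tested genes in that fit.

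The genes whose levels over the 6 libraries were most like those of the called members were found among 13745 genes whose log2 CPM averaged 1 or more. Il1rl2 was most like Ivl (Pearson r = 0.996), which encodes the cornified envelope protein involucrin, followed by Duox1 (0.996) and Ttc22 (0.995). Il1f6 was most like Serpinb3b (0.996), Rab38 (0.996) and Tmem41b (0.995), and Il1r2 was most like Zap70 (0.995), Mmrn1 (0.993) and Hsd3b7 (0.993). The 6 points come from 3 mice and share the treatment contrast, and the values are a description.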

How the data were processed

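Skin RNA of 6 cheeks was read as single 50-base ends, per the labels' protocols. The authors deposited estimated counts, FPKM and TPM for each gene and library, per the file headers, with the authors' group means, which were not used. The submitters' processing notes name HISAT and GRCm39. The sources used here name no counting tool or strand setting, so antisense overlaps cannot be resolved. The deposited FPKM values served only as an alternative in ratios.

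Estimated counts, fractional for 53.9% to 57.2% of genes, were rounded. Genes passing filterByExpr (minimum count of 10) were tested in edgeR 4.0.16 (R 4.3.3, TMM factors 0.973 to 1.05, group as the only term) with Benjamini-Hochberg adjustment at 0.05. Standard errors were taken from each change and its F statistic. Alternatives were DESeq2 1.42.0, no TMM, no filter, the mouse as a block, limma 3.58.1 on log2(TPM + 1) and log2(TPM + 0.1) for genes with a mean TPM of at least 1, and leaving out libraries or mice. The fits were tested on simulated data. Replicates were separate mice, and within groups the libraries differed beyond sampling noise (chi-square of at least 19.8 per degree of freedom).

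Both cheeks of a mouse carry its number, so the numbers pair libraries by animal. Deviations from group means correlated at -0.27, -0.124 and -0.176 within mice 1, 2 and 3. Between cheeks of different mice the correlations ran from -0.0727 to 0.187. By this measure both cheeks of a mouse were less alike than cheeks of different mice.

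Members, lists and tests were chosen with earlier results of these data known. All members were named, then from each list the 5 genes with the smallest p and every called gene up to 10, and for each called member the 3 genes of highest Pearson correlation.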

Additional observations from a re-analysis of the deposited data

How the results depend on the processing

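Every fitted change of the 10 members kept its sign in the 15 other settings. With the mouse as a replicate block, the members called were 2 higher and 0 lower (from 2 and 1), relatives 0 higher, signalling genes 0 higher and response genes 2 higher, against 1, 1 and 5 without it; no other count of the lists changed side. DESeq2 called 2 relatives and 3 signalling genes higher. Signalling genes called higher numbered 2 without TMM factors, 0 with no low-count filter and 2 with limma on log2(TPM + 0.1).

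Leaving out 1 library moved the members called from 0 to 4 higher and from 0 to 1 lower, relatives from 0 to 2 higher, signalling genes from 0 to 6 higher and response genes from 0 to 7 higher. The highest counts came without AEW replicate 1, where 7.83% of all tested genes were called higher, and the share was 0.15% to 2.46% without any other library. In the paired fits of 2 mice with the replicate block, leaving out mouse 1 gave 8 members, 3 relatives, 4 processing genes, 8 signalling genes and 10 response genes higher. The share over all tested genes in that fit was 12.7%. Leaving out mouse 2 gave 1 member higher and 0 lower, and 0 genes of the other lists in either direction, and leaving out mouse 3 gave 0 throughout. At an unadjusted p under 0.05, the edgeR fits that called 0 members higher held 2 to 5 and those that called 0 lower held 1. At the same threshold the blocked fit without mouse 3 held 3 members, 1 relative, 0 signalling genes and 4 response genes upward, against 790 of all 15164 tested genes. Each fit of 2 mice has few residual degrees of freedom. The cause of these changes was not tested. The within-library ratios moved by less than their spread over mice with 0.1 added to both values. Ratios of FPKM equal those of TPM within a library by definition, so that alternative could not differ and tests nothing. Low counts limit Il1b (22 to 153) among the members, and Prtn3, Nlrc4, Nlrp3, Saa3, Cxcl1, Cxcl2, S100a8 and S100a9 among the other genes.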
